A study of Mus musculus with 55 samples.

Results

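Fully grown oocytes (FGOs) of Dnmt3a-ADD mutant mice were compared with wild-type FGOs by RNA sequencing of individual oocytes. The comparison rests on every library that the labels name as an FGO of either genotype, 8 mutant and 18 wild-type libraries, which are 26 of the 55 samples of the series. Mutant females carried the Dnmt3aADA/ADA alleles on both copies of Dnmt3a together with an intact Dnmt3L (Dnmt3L+/+), and the labels give the controls only as wild type. A further 8 FGO libraries came from Dnmt3L-ADD mutants (Dnmt3a+/+ with Dnmt3LD124A/D124A) and 8 from double mutants that carried both sets of alleles; they are used here only where they show how the Dnmt3a-ADD oocytes differ. All donors were adults of 10 to 12 weeks, single oocytes, freed of cumulus cells by washing through a capillary, each gave 1 SMART-Seq HT library. The mutation was made with Cas9 by injecting zygotes of a mixed C57BL/6N, C3H/HeN and C57BL/6J background, a male that carried the change founded the line, and its descendants were backcrossed to C57BL/6J. The labels do not say which oocytes came from the same female, so that p-values measure the spread between oocytes, and alleles that were carried along with the mutation cannot be told apart from the mutation itself.

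DNMT3A is the enzyme that sets DNA methylation during oocyte growth, and DNMT3L is its partner without catalytic activity. Both proteins carry an ADD domain, which binds the tail of histone H3 when lysine 4 is unmethylated and keeps the complex away from active promoters. FGOs have stopped transcribing for the most part and hold a store of maternal mRNA, which serves meiosis and the early embryo.

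The oligonucleotides that made the allele show the change itself. In the guide RNA target the capitals mark the PAM, the bases that Cas9 needs next to its target. In the donor and in the wild-type transcript the capitals mark the bases that differ, A38C and A44C, counted from 1 at the donor's 5′ end with the transcript's base first. The first 4 of the 87 donor bases did not match the transcript and are left out of the wild-type line.
Dnmt3a guide RNA: gcttaccagtatgacgacgaTGG
Dnmt3a donor oligonucleotide: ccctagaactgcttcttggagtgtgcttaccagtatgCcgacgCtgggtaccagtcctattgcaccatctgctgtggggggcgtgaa
Dnmt3a wild-type transcript: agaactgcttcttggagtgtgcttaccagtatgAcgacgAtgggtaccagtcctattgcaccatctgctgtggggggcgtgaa

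Sequencing depth was alike in the groups, at 9250950 to 18909786 counted reads per mutant library (median 16259384) and 11510790 to 17216121 per wild-type library (median 15528925). Of 51734 listed genes, 15726 were tested. The oocyte genes Gdf9 and Zp3 were abundant in every library of both genotypes, at no less than 1492 and 516 CPM. The 18 wild-type libraries fell into 2 sets by their replicate numbers, 1 to 8 and 9 to 18. These sets differed from each other at 701 genes (4.46% of those tested; edgeR quasi-likelihood test, adjusted p under 0.05 and fold change over 2), although both carry the same label. For this reason every result below was also read against each set apart. The words "passed against both sets" are used for a gene with an adjusted p under 0.05, in the same direction, against all 18 wild-type oocytes and against each set. Levels are in CPM, the count of a gene relative to the TMM-scaled total of its library, given as mean ± SD, and log2 fold changes carry their standard error.

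Dnmt3a itself was expressed at 325 ± 17.3 CPM in the 8 mutant FGOs and 302 ± 31.8 CPM in the 18 wild-type FGOs. The log2 fold change of 0.11 ± 0.05 did not pass (edgeR adjusted p = 0.15). It passed against wild-type replicates 1 to 8 (log2 0.22 ± 0.05, edgeR adjusted p = 0.0014) but not against 9 to 18 (0.02 ± 0.05). Dnmt3l did not pass either, with 130 ± 8.4 CPM against 122 ± 23.0 CPM, and its small difference changed sign with the wild-type set used (0.37 ± 0.08 against replicates 1 to 8 and -0.11 ± 0.08 against 9 to 18). A change of 2 bases in the coding sequence leaves these counts in place, so the level of Dnmt3a does not check the genotype labels. Around Dnmt3a (chr12:3806007-3914443, plus strand, mm10), 2 of 36 genes tested within 5000 kb had an adjusted p under 0.05 and a fold change over 2, beside 2.05% of all genes tested. These were the processed pseudogene Gm6682, at 0.27 CPM in mutants and 1.68 CPM in wild type (log2 -2.65 ± 0.38), and the long noncoding 2810032G03Rik (-1.15 ± 0.37), which did not pass against replicates 9 to 18; both were chosen for their position after the values were seen.

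Against all 18 wild-type FGOs, 322 genes were called at an adjusted p under 0.05 and a fold change over 2, which is 2.05% of the genes tested. Of these, 46 were higher (0.293%) and 276 lower (1.76%) in Dnmt3a-ADD FGOs. Without a minimum fold, 2465 genes passed (15.7%), and their directions were then nearly even, with 1268 higher (8.06%) and 1197 lower (7.61%). The number called depended on the controls, with 874 genes (5.56%) against replicates 1 to 8 and 254 (1.62%) against 9 to 18. Of these, 806 of 874 (5.13% of genes tested) were lower in the mutant with the first set and 141 of 254 (0.897%) with the second, while 68 (0.432%) and 113 (0.719%) were higher. Passing against both sets were 471 higher genes (3% of those tested) and 398 lower genes (2.53%), mostly with differences below 2-fold. Of the 322 called genes, 118 also passed against both sets, 23 higher and 95 lower. At 45 genes (0.286%) every mutant library lay on one side of all wild-type libraries, 25 of them lower and 20 higher.

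The lowest p-values of the whole comparison belonged to 2 higher genes, Ide and Dpy19l4. Both differed by less than 2-fold. Ide encodes the insulin-degrading enzyme, a zinc protease that cleaves insulin and other small peptides (chr19:37268743-37337852, minus strand). Its level in the 8 mutant FGOs was 106.4 CPM at the lowest, 119.8 at the median and 130.4 at the highest. Wild-type replicates 1 to 8 ranged from 69.4 to 83.7 CPM and replicates 9 to 18 from 79.1 to 90.7 CPM. Every mutant oocyte therefore lay above every wild-type oocyte, and Ide rose by 0.56 ± 0.05 on the log2 scale (edgeR adjusted p = 3.0e-11). Dpy19l4, of the DPY19 family of membrane proteins (chr4:11261315-11322137, minus strand), ranged from 59.1 to 83.0 CPM in mutants with a median of 71.0. It ranged from 38.0 to 52.7 CPM in replicates 1 to 8 and from 36.8 to 50.4 CPM in 9 to 18. Again no mutant oocyte overlapped with wild type, and the gene rose by 0.70 ± 0.06 (edgeR adjusted p = 1.9e-10).

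Ide and Dpy19l4 were also the only genes of 15726 (0.0127%) that separated Dnmt3a-ADD from Dnmt3L-ADD FGOs in the edgeR test at an adjusted p under 0.05. Ide was at 78.9 ± 6.7 CPM in Dnmt3L-ADD FGOs (range 64.5 to 86.9) and at 81.1 ± 5.1 CPM in double mutants (75.2 to 91.1). The difference from Dnmt3L-ADD was 0.59 ± 0.06 (edgeR adjusted p = 2.6e-09) and that from the double mutant 0.55 (edgeR adjusted p = 3.0e-08). Dpy19l4 was at 41.8 ± 4.0 CPM in Dnmt3L-ADD FGOs and at 45.7 ± 5.5 CPM in double mutants, with differences of 0.78 ± 0.08 (edgeR adjusted p = 2.6e-09) and 0.65 (edgeR adjusted p = 2.3e-07). Between Dnmt3a-ADD and double mutant FGOs, 5.86% of all genes tested were called, 1.48% higher and 4.38% lower in Dnmt3a-ADD. The double mutant FGOs carry the same Dnmt3a alleles, and there neither gene differed from wild type beyond its spread (log2 0.02 and 0.04, edgeR adjusted p = 0.85 and 0.69). At an unadjusted p under 0.05, 1012 genes separated the single mutants, and DESeq2 gave 46 genes at an adjusted p under 0.05, of which 22 differed by more than 2-fold.

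**Figure D1:**
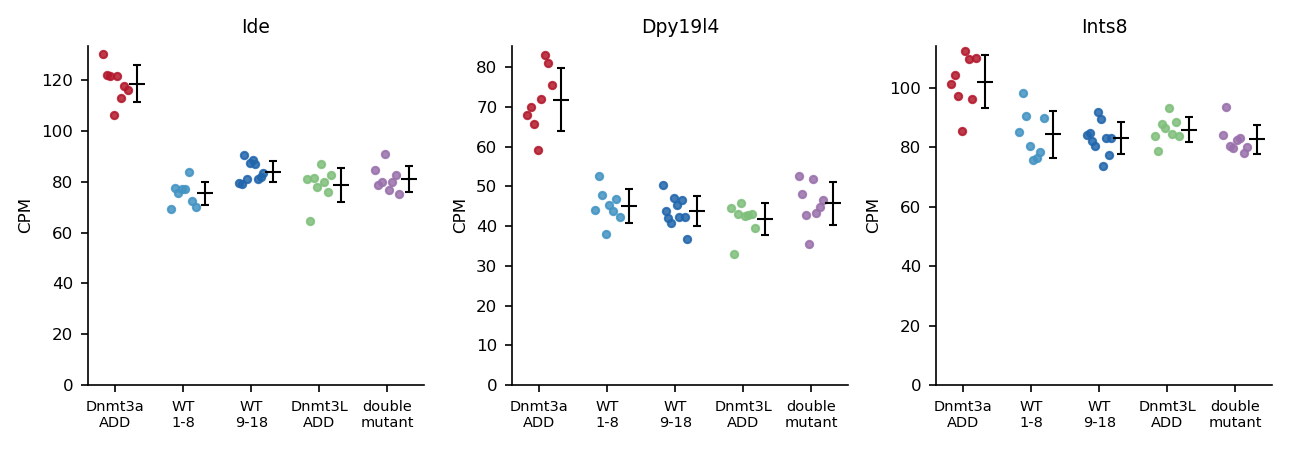
Ide, Dpy19l4 and Ints8 in CPM (y axis) in each FGO library of Dnmt3a-ADD mutants, wild-type replicates 1 to 8 and 9 to 18, Dnmt3L-ADD mutants and double mutants; points are libraries, and bars give the mean and SD. Only the Dnmt3a-ADD libraries lie at 106.4 to 130.4 CPM for Ide and 59.1 to 83.0 CPM for Dpy19l4, above every other FGO library, while Ints8 of the mutants overlaps with the other groups.

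Genes beside these loci were looked at for the same shift. Within 500 kb of Ide, 8 other genes were tested, none was called, and 1 passed at any fold, beside 15.7% of all genes, the homeobox gene Hhex, at 69.4 CPM in mutants against 87.1 in wild type (log2 -0.33 ± 0.09, edgeR adjusted p = 0.011). Within 500 kb of Dpy19l4, 15 genes were tested, of which 1 was called (beside 2.05% of all genes) and 4 passed at any fold (beside 15.7%). Its neighbour Ints8, a subunit of the Integrator complex, rose from 83.5 ± 6.4 to 101.9 ± 8.9 CPM (log2 0.29 ± 0.05, edgeR adjusted p = 3.6e-05) and passed against both sets, as did Ndufaf6, an assembly factor of respiratory complex I (0.42 ± 0.13). Plekhf2 (-1.11 ± 0.38) and 2610301B20Rik (-0.84 ± 0.28) were lower against all wild-type oocytes but did not pass against both sets. None of the neighbours separated the single mutants at an adjusted p under 0.05 in the edgeR test, while DESeq2 gave Ints8 a log2 difference of 0.25 (adjusted p = 0.011).

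The further genes of lowest p among the higher ones differed by less than 2-fold. Inpp5d, the inositol phosphatase SHIP1, lay at 63.7 to 75.8 CPM in mutants and 43.8 to 55.6 CPM in wild type and rose by 0.42 ± 0.04. The adaptor gene Sh3bp2 lay at 161.6 to 250.6 CPM against 91.7 to 157.3 CPM and rose by 0.75 ± 0.08. The groups did not overlap for either gene. For Kifc3, a minus-end kinesin (0.62 ± 0.07), and Oaz2, which restrains polyamine synthesis (0.69 ± 0.08), 7 of the 8 mutant oocytes lay above every wild-type oocyte. Among the higher genes whose groups did not overlap were also regulators of the cell cycle and of chromatin, named after their values were seen. Espl1, the protease separase that opens cohesin rings, rose from 319 ± 17.1 to 421 ± 28.6 CPM, Lin28a, which blocks maturation of the let-7 microRNA, from 123 ± 7.2 to 154 ± 9.5 CPM, and Brwd1, a bromodomain protein, to 732.1 to 817.9 CPM from 540.3 to 692.3 CPM.

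Among protein-coding genes that rose by more than 2-fold, Gcc1 had the lowest p, and it passed against both sets. Gcc1 encodes a coiled-coil protein of the Golgi. Its level was 25.7 to 45.4 CPM in the mutants, 7.0 to 33.1 CPM in wild-type replicates 1 to 8 and 6.1 to 15.99 CPM in 9 to 18 (log2 1.31 ± 0.18, edgeR adjusted p = 2.6e-06), and 4 of 8 mutants lay above every control. It stood at a like level in Dnmt3L-ADD (29.7 ± 3.9 CPM) and double mutant FGOs (35.0 ± 5.5 CPM). The transcript model Gm42887, of no known function, (chr5:69503842-69504960) rose from 2.32 ± 2.0 to 10.6 ± 2.1 CPM (log2 2.17 ± 0.26), and it was at 11.1 CPM in Dnmt3L-ADD FGOs and 1.20 CPM in double mutants. Other higher genes of this kind were Syndig1 (1.80 ± 0.31), Lrmp (1.22 ± 0.25), the kinase gene Prkcb (1.53 ± 0.35), Mterf2 (1.67 ± 0.38), Mamdc2 (1.33 ± 0.31) and Fcgr3 (1.22 ± 0.28). All of these had mean levels under 7 CPM in both groups.

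A small nuclear RNA gene was also higher. Rnu12, the U12 RNA of the minor spliceosome, lies at chr15:83149644-83149794 and rose from 6.32 ± 3.0 to 13.4 ± 1.2 CPM (log2 1.08 ± 0.19). All mutants lay at 12.4 to 16.2 CPM, while replicates 9 to 18 lay at 3.0 to 7.1 CPM and replicates 1 to 8 reached 13.1 CPM. Cyb5r3, which encodes a cytochrome b5 reductase (chr15:83153494-83172592, minus strand), lies next to it and fell from 84.8 ± 28.6 to 39.8 ± 7.7 CPM (log2 -1.09 ± 0.17). The line below gives the annotated sequence of Rnu12. Whether the counted reads came from this transcript was not tested.
Rnu12: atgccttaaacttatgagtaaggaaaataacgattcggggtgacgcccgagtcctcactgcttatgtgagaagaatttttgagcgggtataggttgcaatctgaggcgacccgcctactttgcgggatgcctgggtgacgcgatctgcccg

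The most uniform group among the lower genes was that of nuclear copies of mitochondrial genes. These are stretches of mitochondrial DNA that were inserted into the chromosomes and are annotated as pseudogenes. Of 15 such models tested, 14 fell against both sets (93.3%, beside 2.53% of all genes), and 10 of them by more than 2-fold. Summed over the 15 models, mutant oocytes had 1331 CPM at the lowest, 1711 at the median and 2025 at the highest. Wild-type replicates 1 to 8 had 3413, 4034 and 6745 CPM, and replicates 9 to 18 had 2707, 3163 and 3367 CPM, so the mutant range lay below both. Dnmt3L-ADD FGOs had 1700 to 2763 CPM and double mutants 2099 to 3529 CPM.

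The 14 lower models stand for only few places in the genome and are not independent of each other. Gm28439, Gm10222, Gm28438, Gm28437, Gm10925, Gm28661 and Gm29216 lie side by side between positions 24611535 and 24616197 of chromosome 1, Gm11407, Gm11408 and Gm11410 on chromosome 4, Gm13340 and Gm13339 on chromosome 2, and Gm4076 and Gm11512 alone on chromosomes 13 and 11. The lowest p belonged to Gm4076 and to Gm10925, which matches the ATP synthase subunit gene mt-Atp6 and fell from 552 ± 134.3 to 250 ± 39.8 CPM (log2 -1.14 ± 0.12, edgeR adjusted p = 1.9e-08). Its mutant range was 188.3 to 304.2 CPM, below 526.5 to 955.6 CPM in replicates 1 to 8 and 409.9 to 549.9 CPM in 9 to 18. Gm11410, a copy of mt-Cytb on chromosome 4, fell from 516 ± 147.3 to 252 ± 50.6 CPM (-1.03 ± 0.14), and the widest difference was that of Gm13339 (-1.55 ± 0.20). The exception was Gm43841, a copy of mt-Cytb with 83.5% identity, at 1.11 CPM in mutants and 0.89 CPM in wild type (0.35 ± 0.28, edgeR adjusted p = 0.41).

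Whether these reads arose from the chromosomes cannot be told apart from reads of the mitochondrial genome. All 37 genes of the mitochondrial genome had 0 counts in all FGO libraries, and 5 copies (Gm10222, Gm10925, Gm28437, Gm28439 and Gm28661) were identical to their mitochondrial gene over their whole length. The lines below give the start of such a copy beside mt-Atp6, and a stretch of the chromosome 4 copy beside mt-Cytb, in which capitals mark the 5 bases that differ among 90.
Gm10925: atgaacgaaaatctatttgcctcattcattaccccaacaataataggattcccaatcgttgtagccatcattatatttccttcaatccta
mt-Atp6: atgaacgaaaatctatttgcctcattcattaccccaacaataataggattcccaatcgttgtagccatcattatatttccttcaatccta
Gm11410: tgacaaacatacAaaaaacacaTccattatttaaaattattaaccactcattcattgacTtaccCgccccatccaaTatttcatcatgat
mt-Cytb: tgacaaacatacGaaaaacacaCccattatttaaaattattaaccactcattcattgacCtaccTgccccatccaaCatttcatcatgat
Among all other pseudogenes, 24 of 682 (3.52%, beside 2.53% of all genes) fell and 4 rose against both sets.

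**Figure D2:**
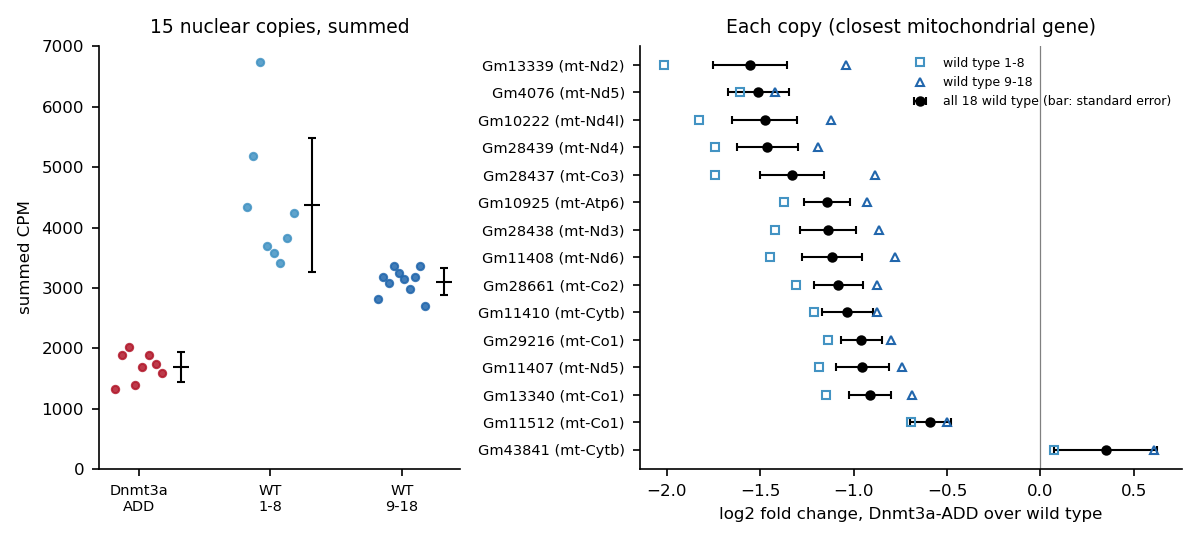
Left, the sum over 15 nuclear copies of mitochondrial genes in CPM in each library, with the mean and SD per set; right, the log2 fold change of Dnmt3a-ADD over wild-type FGOs for each copy, with the closest mitochondrial gene in parentheses, against all 18 wild-type libraries (filled points, bars are standard errors), replicates 1 to 8 (squares) and 9 to 18 (triangles). The mutant sums of 1331 to 2025 CPM lie below all wild-type sums, and 14 of 15 copies lie below 0 with either set.

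Some genes that define the oocyte fell in the mutant, by less than 2-fold. Of 16 oocyte markers tested, 7 fell against both sets and none rose, which is 43.8% beside 2.53% of all genes. All 3 zona pellucida genes, whose products form the coat of the egg, were among them. Zp2 fell from 1385 ± 295.7 to 910 ± 110.1 CPM (log2 -0.61 ± 0.10), Zp3 from 852 ± 104.7 to 643 ± 71.8 CPM (-0.41 ± 0.07) and Zp1 from 487 ± 71.0 to 383 ± 27.7 CPM (-0.34 ± 0.07). The mutant range of Zp2 was 787.3 to 1111.9 CPM, below the 1113.4 to 1334.9 CPM of replicates 9 to 18, and 1 oocyte of replicates 1 to 8 lay inside it at 794.9 CPM. Gdf9 and Bmp15, the growth factors by which the oocyte acts on its follicle, fell from 2158 ± 168.6 to 1678 ± 192.3 CPM (-0.36 ± 0.05) and from 1810 ± 227.7 to 1437 ± 156.5 CPM (-0.33 ± 0.07). Nlrp5 (-0.30 ± 0.08) and Padi6 (-0.28 ± 0.06), parts of the subcortical maternal complex that the embryo needs for its first cleavages, made up the 7, and Nlrp14 (-0.38 ± 0.08) and Nlrp9b (-0.30 ± 0.06) of that list fell too. In double mutants, which carry the same Dnmt3a alleles, Zp2 was at 1677 ± 193.3 CPM and Bmp15 at 2235 ± 121.2 CPM, above the Dnmt3a-ADD level (edgeR adjusted p = 3.1e-06 and 1.6e-06). The median log2 fold change of the oocyte markers from wild type was -0.28 in Dnmt3a-ADD, -0.18 in Dnmt3L-ADD and 0.14 in double mutant FGOs. None of these genes separated Dnmt3a-ADD from Dnmt3L-ADD FGOs at an adjusted p under 0.05 in the edgeR test. All of these list members were named after their values were seen, and the lists were set with earlier results of these data known.

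Heat shock proteins and chaperones, which fold other proteins, showed the same direction. Of 15, 5 were lower against both sets (33.3%, beside 2.53% of all genes) and none higher. The cytosolic Hsp90aa1 fell from 1604 ± 92.0 to 1257 ± 170.4 CPM (log2 -0.35 ± 0.05) and the mitochondrial Hspe1 from 50.8 ± 9.7 to 31.2 ± 2.9 CPM (-0.71 ± 0.11). Hsph1 (-0.61 ± 0.17), Hspa8 (-0.25 ± 0.05) and Dnaja1 (-0.23 ± 0.05) were the others. The median log2 fold change of the list from wild type was -0.33 in Dnmt3a-ADD, -0.17 in Dnmt3L-ADD and 0.02 in double mutant FGOs. For Hsph1, replicate 4 of the mutants stood apart with 527.7 CPM, inside the wild-type range, where the other mutants had 168 to 382 CPM.

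**Figure D3:**
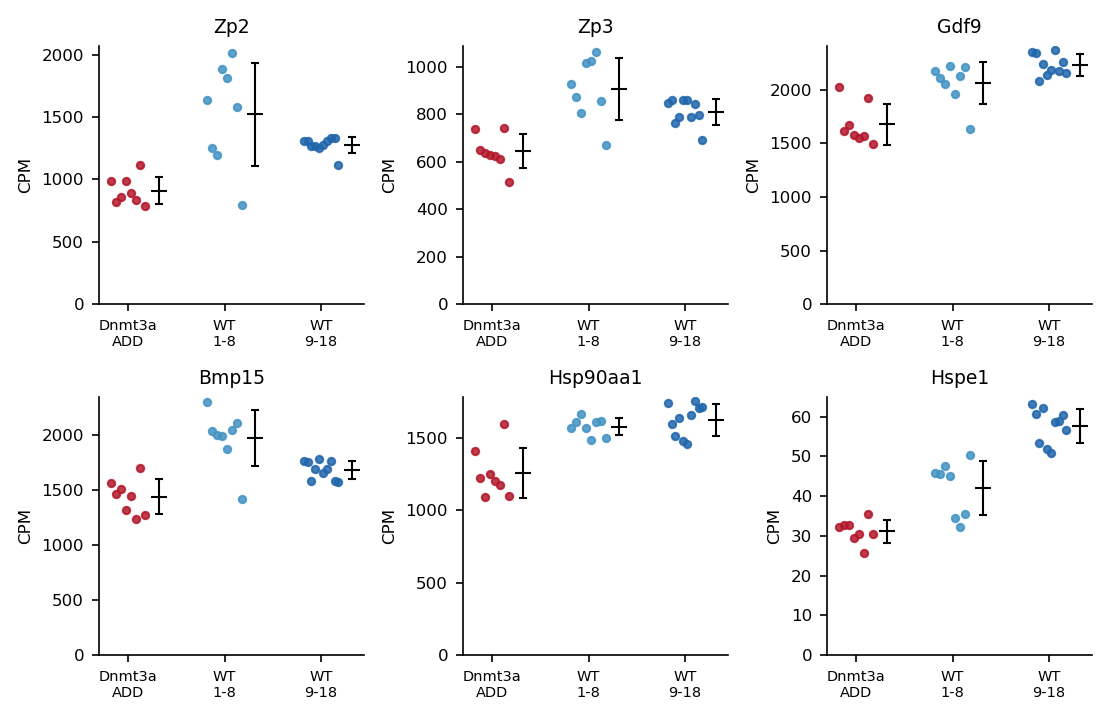
Zp2, Zp3, Gdf9, Bmp15, Hsp90aa1 and Hspe1 in CPM (y axes start at 0) in each library of Dnmt3a-ADD FGOs and wild-type replicates 1 to 8 and 9 to 18; points are libraries, and bars give the mean and SD. The mutant mean is the lowest of the 3 sets in each panel, and the ranges overlap with replicates 1 to 8 for Zp2, Zp3, Gdf9, Bmp15, Hsp90aa1 and Hspe1.

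Machinery of protein synthesis and respiration was lower in part. Of 83 cytosolic ribosomal protein genes, 11 fell and 2 rose against both sets (13.3% and 2.41%, beside 2.53% and 3% of all genes). Rps23 fell from 21.1 ± 6.3 to 8.19 ± 2.9 CPM (log2 -1.36 ± 0.19), and Rpl23a from 22.1 ± 2.2 to 14.2 ± 1.2 CPM (-0.64 ± 0.07) with no overlap of the groups. Rpl37 rose, from 79.6 ± 6.4 to 93.8 ± 6.7 CPM, and so did Rpl24, at under 1 CPM. Ribosomal protein genes have many processed copies in the genome, so reads may be split between a gene and its copies. Of 78 nuclear genes of oxidative phosphorylation, 10 fell and 2 rose (12.8% and 2.56%, beside 2.53% and 3% of all genes). The complex I subunit gene Ndufs6 fell from 6.83 ± 1.1 to 4.19 ± 0.8 CPM (-0.71 ± 0.14) and the complex IV gene Cox6c from 84.6 ± 6.9 to 65.6 ± 5.7 CPM (-0.37 ± 0.05), both without overlap, and Cox7c by 0.72 ± 0.15 on the log2 scale. Ndufa2 (0.30 ± 0.06) and Ndufv1 (0.26 ± 0.05) rose. Translation factors gave 5 lower and 1 higher of 62 (8.06% and 1.61%, beside 2.53% and 3% of all genes). The lower ones included Eef1a1, at 391 ± 28.8 CPM in wild type and 332 ± 34.9 CPM in mutants.

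Some proteasome and nuclear pore genes went the other way, in small numbers. Of 45 proteasome subunit genes, 4 rose against both sets and none fell (8.89%, beside 3% of all genes). Without mutant replicate 3 or 5 the count was 2 higher and 1 lower. The median log2 fold change over all 45 was 0.02. The 1 member called at over 2-fold, Psmd13, was lower but did not pass against both sets. Psmc5 and Psmc4, ATPases of the regulatory particle, rose from 90.8 ± 14.2 to 119 ± 7.2 CPM (log2 0.39 ± 0.08) and from 111 ± 11.9 to 140 ± 13.04 CPM (0.34 ± 0.06), and Psmb7 (0.33 ± 0.07) and Psmb4 (0.26 ± 0.06) of the core particle with them. Of 20 nucleoporin genes, Nup37 (0.52 ± 0.09) and Nup85 (0.29 ± 0.06), both of the outer ring, rose (10%, beside 3% of all genes). The list of tubulin and gamma-tubulin complex genes was divided, with 3 of 21 higher and 3 lower (14.3% each, beside 3% and 2.53% of all genes). Tuba1b fell from 6.84 ± 2.0 to 3.43 ± 0.7 CPM and Tuba1c from 41.7 ± 12.3 to 21.8 ± 4.8 CPM, while the gamma-tubulin complex gene Tubgcp2 rose by 0.24 ± 0.06. Of 37 genes of RNA polymerase II and Mediator, 3 rose and 1 fell against both sets (8.11% and 2.7%, beside 3% and 2.53% of all genes). Polr2i rose (0.47 ± 0.06) and Polr2j fell (-0.44 ± 0.07).

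**Figure D4:**
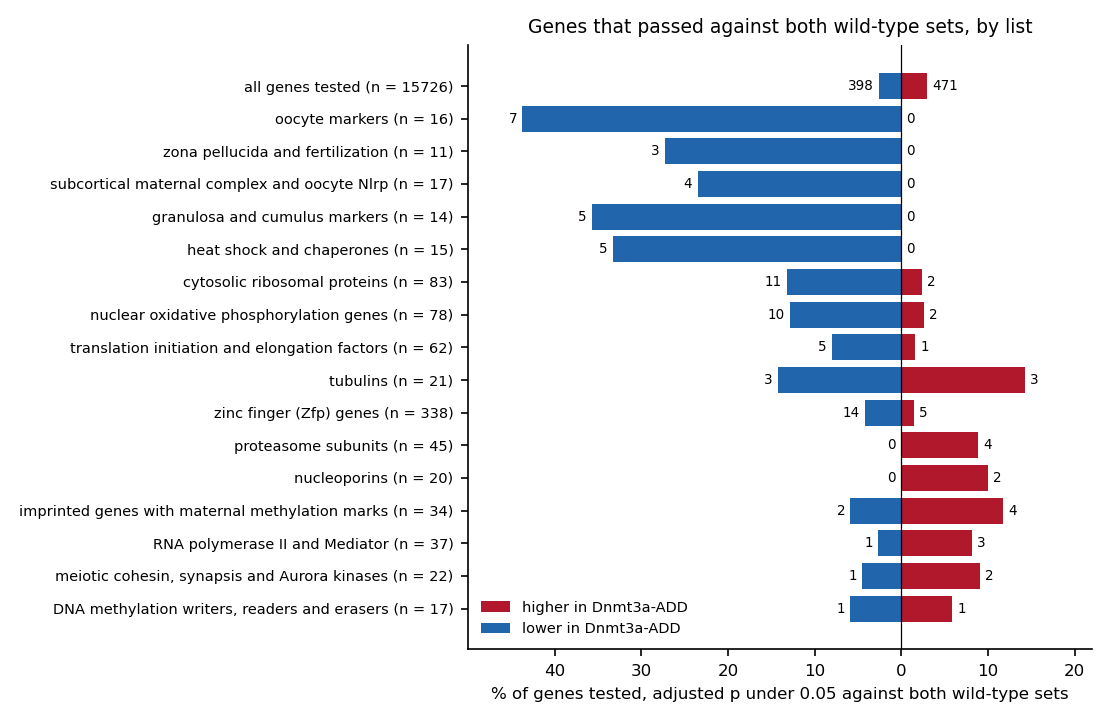
Share of the tested genes of 16 selected lists (x axis, %) that were higher (right) or lower (left) in Dnmt3a-ADD FGOs with an adjusted p under 0.05 against both wild-type sets; numbers beside the bars are counts of genes, and the top bar gives all 15726 genes tested, 471 higher and 398 lower. Oocyte markers (7 of 16), granulosa markers (5 of 14) and heat shock genes (5 of 15) have the longest bars on the lower side among the lists drawn. On the higher side it is the list labelled tubulins (3 of 21), which also holds gamma-tubulin complex genes.

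Enzymes that set, read and remove DNA and histone methylation passed against both sets in counts of 1 or 2 per list. In the DNA methylation list of 17 genes, 1 rose and 1 fell (5.88% each, beside 3% and 2.53% of all genes). The same counts held for 17 H3K4 methylation enzymes. Of 23 H3K36 and H3K9 enzymes, 1 rose and 1 fell (4.35% each), and of 18 Polycomb genes 1 rose (5.56%) and none fell. In the DNA methylation list, Tet2, which oxidises methylcytosine, rose from 20.7 ± 3.5 to 27.3 ± 5.2 CPM (log2 0.40 ± 0.11, edgeR adjusted p = 0.011), and Kdm1b, the demethylase of H3K4 that prepares imprinted loci for methylation in the oocyte, fell from 475 ± 129.1 to 313 ± 141.4 CPM (-0.60 ± 0.17, edgeR adjusted p = 0.015). Neither Tet2 nor Kdm1b passed against both sets without mutant replicate 1, 2 or 5. Kdm1b also did not pass without replicate 3 or 6, or with RLE in place of TMM normalization. In 1 mutant oocyte, replicate 4, Kdm1b was at 601.3 CPM, above the wild-type mean. Dnmt1 was at 4049 ± 394.9 and 4142 ± 447.1 CPM (-0.03 ± 0.06, edgeR adjusted p = 0.73) and Tet3 at 3574 ± 409.0 and 3431 ± 246.1 CPM (0.06 ± 0.05, edgeR adjusted p = 0.40). Setd2, which makes the trimethylated H3K36 that DNMT3A binds, fell from 579 ± 54.5 to 464 ± 112.6 CPM (-0.32 ± 0.08). Kdm4a (0.25 ± 0.06) and the Polycomb cofactor Mtf2 (0.29 ± 0.05) rose. Without mutant replicate 1, 2, 3, 5 or 6, no gene of the H3K36 and H3K9 list rose against both sets. Without replicate 1 or 3, the gene of that list that had fallen no longer passed.

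Some imprinted genes carry a methylation mark that DNMT3A sets in the growing oocyte and that acts on their expression in the embryo. Of 34 tested, 4 rose and 2 fell against both sets (11.8% and 5.88%, beside 3% and 2.53% of all genes). Mest rose from 95.0 ± 10.3 to 122 ± 15.6 CPM (log2 0.36 ± 0.06), Snrpn from 7.57 ± 1.5 to 11.2 ± 2.3 CPM (0.56 ± 0.13), Kcnq1 from 26.6 ± 2.3 to 33.0 ± 2.2 CPM (0.31 ± 0.06) and Blcap from 108 ± 10.5 to 127 ± 10.6 CPM (0.22 ± 0.05). Gnas fell from 13.3 ± 3.2 to 7.70 ± 1.3 CPM (-0.79 ± 0.13) with no overlap, and Ube3a from 172 ± 19.5 to 130 ± 19.1 CPM (-0.41 ± 0.07). Pou5f1, the pluripotency factor OCT4, was the higher one among 18 oocyte transcription factors (5.56%, beside 3% of all genes). It was at 158 ± 9.5 against 116 ± 15.7 CPM (0.45 ± 0.07), and Ybx2, which packages stored mRNA, was the lower one (-0.26 ± 0.05).

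The count of zinc finger (Zfp) genes that passed depended on the controls. Of 338 tested, 14 fell and 5 rose against both sets (4.14% and 1.48%, beside 2.53% and 3% of all genes), and the 14 became 9 without mutant replicate 8. Against replicates 1 to 8 alone 113 fell and 31 rose, where 16.6% and 15% of all genes did. Against 9 to 18 alone 21 fell and 8 rose, where 5.2% and 6.26% of all genes did. Zfp40 had the lowest p of those called, at 1.9 to 7.2 CPM in mutants and 7.6 to 20.02 CPM in wild type (log2 -1.11 ± 0.20, edgeR adjusted p = 0.00015), without overlap. Zfp978 (-0.73 ± 0.10) and Zfp981 (-1.02 ± 0.22) also fell. Of the 83 ribosomal protein genes, 34 fell and 7 rose against replicates 1 to 8, and 16 fell and 9 rose against 9 to 18.

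Other named genes that fell by more than 2-fold and passed against both sets had varied roles. Elob, a subunit of elongin and of ubiquitin ligases, fell from 8.17 ± 2.1 to 3.68 ± 0.9 CPM (log2 -1.15 ± 0.17), and Ctsl, the lysosomal protease cathepsin L, from 8.22 ± 3.3 to 3.73 ± 1.2 CPM (-1.14 ± 0.22). Ncbp1, which binds the mRNA cap (-1.24 ± 0.23), Nudt21, which acts in cleavage of pre-mRNA (-1.04 ± 0.20), Tmem47 (-1.11 ± 0.21), Fam46d (-1.28 ± 0.27) and the mitochondrial carrier Slc25a33 (-1.25 ± 0.26) were others. The dynactin subunit gene Dctn3 had the lowest p among lower protein-coding genes, at 12.8 to 19.1 CPM in mutants against 18.7 to 27.5 CPM in replicates 1 to 8 and 21.7 to 26.4 CPM in 9 to 18 (-0.63 ± 0.07, edgeR adjusted p = 4.5e-08). The immediate early gene Jun fell too, at 0.31 ± 0.3 against 1.40 ± 1.0 CPM (-2.13 ± 0.56).

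Markers of granulosa and cumulus cells, the somatic cells that surround the oocyte and were washed off, were measured in these libraries too, and some were lower in mutants. Of 14 tested, 5 fell against both sets and none rose (35.7%, beside 2.53% of all genes). Inha, the alpha subunit of inhibin, was at 0.89 to 5.58 CPM in mutants, 5.4 to 17.6 CPM in replicates 1 to 8 and 2.8 to 26.1 CPM in 9 to 18 (log2 -1.89 ± 0.32, edgeR adjusted p = 9.7e-05), and 5 of 8 mutants lay below every wild-type oocyte. The beta subunit genes Inhbb (-2.11 ± 0.47) and Inhba (-1.41 ± 0.39), the estradiol enzyme gene Hsd17b1 (-1.73 ± 0.39) and Amh (-1.67 ± 0.49) fell as well. Cyp19a1, which encodes aromatase, was at 29.0 ± 5.2 and 24.95 ± 6.3 CPM (0.22 ± 0.15, edgeR adjusted p = 0.33), and Nr5a2 at 84.8 ± 13.2 and 87.0 ± 16.8 CPM (-0.04 ± 0.10, edgeR adjusted p = 0.83). Summed over the list, mutants had 296 to 365 CPM, replicates 1 to 8 had 303 to 433 CPM and replicates 9 to 18 had 322 to 419 CPM, so the ranges overlapped. Nr5a2 alone gave 84.8 and 87.0 CPM of these sums, which can hide a fall of markers at low levels such as Inha. The median log2 fold change of the list from wild type was -0.56 in Dnmt3a-ADD, -0.42 in Dnmt3L-ADD and -1.35 in double mutant FGOs. Of 8 theca and interstitial markers tested, 2 were called lower (beside 1.76% of all genes) and none higher. These were Star and Cyp11a1 (-1.51 ± 0.37 and -1.34 ± 0.42), which did not pass against both sets. Of 11 stroma and smooth muscle markers tested, 1 was called higher and 2 lower (beside 0.293% and 1.76% of all genes). Against both sets, 1 of them rose and 1 fell (9.09% each, beside 3% and 2.53% of all genes). Fewer attached somatic cells and less RNA of the lower markers per cell cannot be told apart here, and the part of somatic cells in the other lower genes was not tested.

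**Figure D5:**
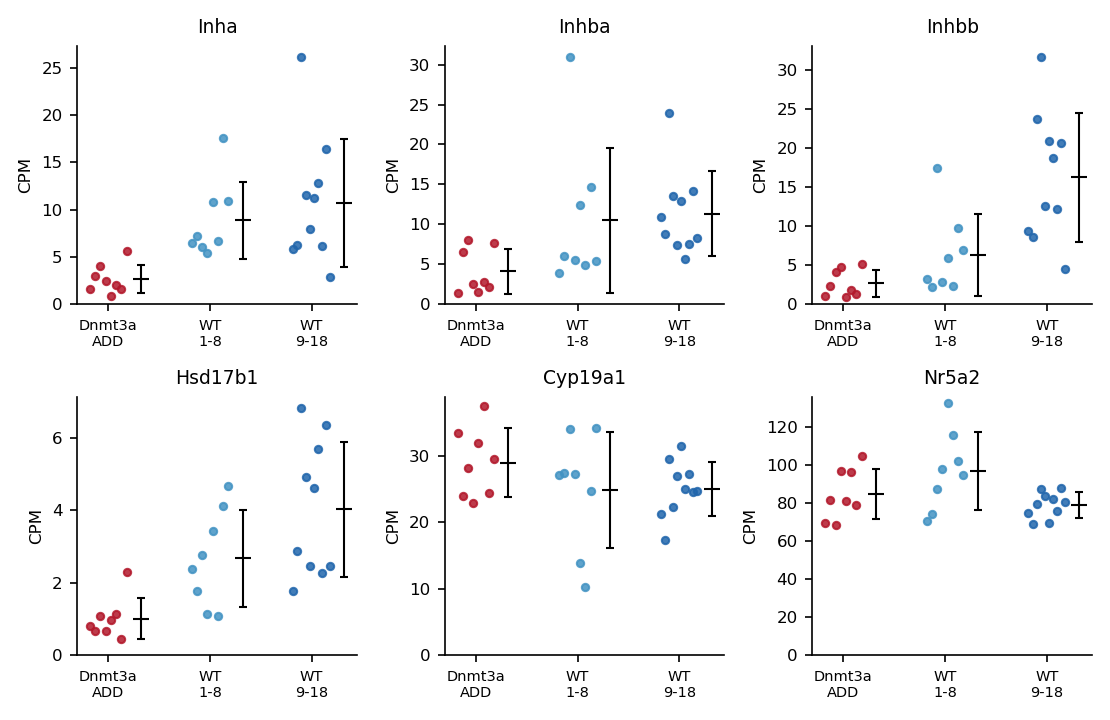
Inha, Inhba, Inhbb, Hsd17b1, Cyp19a1 and Nr5a2 of the granulosa list in CPM (y axes start at 0) in each library of Dnmt3a-ADD FGOs and wild-type replicates 1 to 8 and 9 to 18; points are libraries, and bars give the mean and SD. Inha, Inhba, Inhbb and Hsd17b1 of the mutants lie at the lower end, with Inha at 0.89 to 5.58 CPM, while the Cyp19a1 and Nr5a2 ranges overlap between the sets.

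Higher and lower genes differed in length and level. Among protein-coding genes, those that rose against both sets had a median annotated length of 5111 bases and a median wild-type level of 75.3 CPM (n = 435). Those that fell had 3208 bases and 22.9 CPM (n = 323), and all 13043 tested had 4314 bases and 19.7 CPM. The part of length and level in these counts was not tested.

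Mutant replicates 4 and 8 weighed on single results. Col1a2, a collagen gene of stroma, was at 26.8 CPM in replicate 8 and at 0 to 10.0 CPM in the other mutants. Its log2 fold change of 2.34 ± 0.58 became 1.14 without that library (edgeR adjusted p = 0.18). Ltbp4 went from 1.35 ± 0.32 to 0.82 (edgeR adjusted p = 0.064) in the same way. Leaving out replicate 4 raised the number of called genes from 322 to 574. The counts of genes that fell against both sets were made again with each mutant library left out in turn. The nuclear copies of mitochondrial genes stayed at 14 each time, the oocyte markers at 6 or 7, the heat shock genes at 4 or 5 and the cytosolic ribosomal protein genes at 9 to 11. Other counts moved more, with 3 to 5 granulosa markers (3 without replicate 1, 2, 5 or 7), 3 to 6 translation factors (3 without replicate 5 or 8) and 0 to 3 clustered histones (0 without replicate 6).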

How the data were processed

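RNA of single fully grown oocytes was sequenced from SMART-Seq HT libraries. The study reports paired-end reads aligned to mm10 with STAR and counted with featureCounts and HTSeq. The authors deposited whole-number counts per gene for each library, which were used as deposited, without normalization. Groups came from the labels. The kit does not mark strand, so a gene and its antisense partner cannot be told apart. No gene of the mitochondrial genome had counts.

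Genes were kept with filterByExpr (minimum count 10), scaled by TMM and tested in edgeR 4.0.16 (R 4.3.3) by the quasi-likelihood test, two-sided, over the 42 FGO libraries with genotype as the only term. A second fit split wild type into replicates 1 to 8 and 9 to 18. A gene was called at a Benjamini-Hochberg adjusted p under 0.05 and a fold change over 2. On simulated counts of 15498 genes for this comparison, 200 of 200 genes changed by 2 on the log2 scale were found, with 5 wrong calls. The simulation held no difference between the wild-type sets and no shared females. It therefore measures neither errors from these nor recovery of smaller changes. DESeq2 1.42.0 was an alternative and blastn 2.17.0 matched nuclear copies to mitochondrial genes. Symbols of 47597 of 51734 genes (92.0%) matched GENCODE M21. Guide and donor sequences are those of the study's supplementary tables, and the other sequences were read from mm10.

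Genes were named by rule: Dnmt3a and Dnmt3l, then the 12 higher and 12 lower called genes of lowest p that passed against both sets, 5 and 5 predicted models of that kind, 6 and 6 of lowest p at any fold, and up to 4 called members of each list. Other genes were named after their values were seen. The members, lists and rules were chosen with earlier results of these data known. A result on 1 group of small RNA models is not reported here.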

Additional observations from a re-analysis of the deposited data

Results flagged for a closer look

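Among the 86 genes checked, 15 had 1 mutant library far from the other 7, with its gap to the nearest library, divided by the range of the group, above Dixon's critical value for 8 samples; chance gives about 1 in 20. Replicate 8 was the distant library for 9 of them, replicate 4 for 5 and replicate 3 for 1. The ratios of the 14 that are given here were 0.699 for Rnu12, 0.679 for Ltbp4, 0.627 for Col1a2, 0.602 for A530020G20Rik, 0.742 for Ncbp1, 0.628 for Hsd17b1 and 0.541 for Kifc3. Among list members they were 0.885 for Piwil2, 0.646 for Psmd13, 0.738 for Atp6v1b1, 0.797 for Cct6a, 0.545 for Scarna17, 0.722 for Snord66 and 0.599 for Snord34. Without replicate 8, A530020G20Rik had a log2 fold change of 2.19 in place of 3.13.

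Ide and Dpy19l4 differed between the single mutants, by 0.59 and 0.78 on the log2 scale between Dnmt3a-ADD and Dnmt3L-ADD FGOs in the edgeR quasi-likelihood test of that difference.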

How the results depend on the processing

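The count of 322 called genes depended most on the controls, on the fold required and on low levels. It was 2465 with no minimum fold (1268 higher, 1197 lower) and 22 with a fold of 1.5 inside the test (8 and 14). It was 682 without a filter (363 higher) and 40 at a mean of at least 10 CPM (1 and 39), and a mean of at least 1 CPM left 27 higher genes. Wild-type replicates 1 to 8 alone gave 791 (736 lower), and 9 to 18 alone gave 101 higher and 149 lower. Leaving out 1 library at a time gave 227 to 574 called genes, 30 to 57 higher and 184 to 517 lower; 574 and 517 came without mutant replicate 4 and 30 without replicate 8. Alternatives chosen after seeing the data were protein-coding genes only (22 higher), leaving out mutant replicate 4 with wild-type 9 to 18 (986 called, 926 lower) and with 1 to 8 (122 higher). At any fold, the set comparisons gave 4959 against 1 to 8, 1802 against 9 to 18 and 4354 between the sets; at 1 CPM or more the latter pair gave 158 and 455. DESeq2 called 405 genes and the exact test 371. Also counted after seeing the data, genes passing against both sets numbered 317 to 580 higher and 345 to 569 lower with mutant libraries left out.

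Whether shared replicate numbers mark a shared animal or batch is not given by the labels, and the samples were not treated as pairs (correlations of -0.10 to 0.40; only replicate 8 matched its own number best). The fit with the replicate block called 720 genes (664 lower), 244 of them among the 322.

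For named genes, 1219 of 1348 values in other settings kept direction and call, and 2 reversed with wild-type 9 to 18 alone, Dnmt3l (-0.11) and Snora23 (0.13). Both reversed again without mutant replicate 4 and wild-type 1 to 8 (-0.089 and 0.14). With 1 library left out, 2159 of 2227 kept their call and none reversed. The cause of these shifts was not tested.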

Other observations

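Further gene groups were counted against both sets. Of 23 cholesterol synthesis genes, 25 genes of the piRNA and endo-siRNA pathway, 25 antioxidant and one-carbon genes, 23 cyclins and 11 p53 targets, none passed in either direction, beside 5.53% of all genes. A p that misses the threshold does not show that they did not differ. Of 42 clustered histone genes 2 fell (4.76%, beside 2.53% of all genes). Of 228 solute carriers 6 rose and 5 fell (2.63% and 2.19%, beside 3% and 2.53% of all genes). Of 22 genes of meiotic cohesin, synapsis and Aurora kinases, Aurkb (0.34) and Syce2 (0.33) rose and Sycp1 (-0.62) fell. These shares were 9.09% and 4.55%, beside 3% and 2.53% of all genes.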
